A study of Mus musculus with 4 samples.

Results

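The genes that make, sense and remove extracellular adenosine were followed in human immune cells of humanised mice, by cell population and across blood of naïve, sham and spinal cord injured (SCI) mice and the injured cord. They were 6 of the 33538 human genes of the reference, namely ENTPD1, NT5E, CD38, ADORA2A, DPP4 and ADA. They were listed by name, not by a rule on their values, but with earlier results of these data known. Their values were read in the 17002 human cells kept, where a human cell was a barcode with over 50% of its unique molecular identifiers (UMIs) on human genes. ENTPD1 was found in B-like, monocyte-like, plasma-like, Treg-like and cycling cells, and NT5E in CD8 T-like cells. DPP4 was found in CD8 T-like cells and in an unnamed T cell cluster with CD4 but hardly any CD8A. CD38 was found in plasma-like cells and ADA across T cells and in plasma-like cells, whereas ADORA2A was barely detected anywhere.

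Extracellular adenosine arises stepwise at the cell surface. ENTPD1 (CD39) removes phosphates from ATP and ADP released by stressed or dying cells, and NT5E (CD73) turns the resulting AMP into adenosine. CD38 consumes NAD and can feed the same end product through ADP-ribose. ADORA2A is the receptor through which adenosine raises cAMP and restrains activated T cells. ADA deaminates adenosine to inosine, and DPP4 (CD26) is a surface peptidase that also anchors ADA to the cell. In humans CD39 is a known marker of regulatory T cells, CD73 of subsets of B and CD8 T cells, and CD38 of plasma cells.

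The hosts were huNSG-SGM3 mice, which carry the Prkdcscid and IL2rgtm1Wjl alleles on a NOD background, lack their own lymphocytes, express human IL3, CSF2 and KITLG from transgenes under a CMV promoter, and had been engrafted with human cord blood CD34+ cells. Naïve mice had no surgery, sham mice had a thoracic laminectomy only, and SCI mice had a thoracic contusion, with the operated mice taken at 7 days and all labelled as 15 weeks of age. Live human CD45+ cells were sorted from blood of each group and from the cord of SCI mice. They were profiled by droplet-based scRNAseq, 1 library each. Blood was lysed to remove red cells, whereas cord tissue was digested with papain and DNase and enriched with magnetic beads before sorting. In the comparison of cord and blood, tissue and preparation therefore cannot be told apart. A library was a pool of animals, and the naïve and sham hosts were male while the SCI hosts were of both sexes, so that host sex and condition cannot be told apart.

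The 3 blood libraries held 6312 (naïve), 4643 (sham) and 5929 (SCI) human cells with 29204150, 27654915 and 31124212 human UMIs, and the cord library 118 cells with 1430777. The median depth per cell was 3694.5, 5230 and 4653 UMIs in the blood libraries in this order and 9331 UMIs in the cord. Between 0 and 10 barcodes of kept cells were shared by any pair of libraries. With 1 library per group there is no spread between replicates, and therefore no test and no p-value. Levels are CPM of the summed cells, the UMIs of a gene scaled to a common total without ribosomal and mitochondrial genes, and all intervals are 95% intervals that cover counting error only.

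Clustering, from which the adenosine genes had been left out, gave 16 clusters. They held CD4 T-like (4847 cells), Treg-like (2920), cytotoxic memory T-like (864) and cycling cells (574), and 2 CD8 T-like populations, the first led by CD8B (2673) and the other by ZNF683 and the gamma delta genes TRDC and TRGC2 (417). B-like cells were split into a TCL1A-led (2374) and an MPP6-led population (303), and plasma-like cells into IGLC3-led (240) and IGHA1-led cells (146). Monocyte-like cells (256) and 2 basophil or mast-like populations made up most of the rest. A cluster led by NRP2 (891) stayed unnamed. CD3E was seen in 77.6% of its cells, CD4 in 35.7% and CD8A in 1.57%. A cluster led by CLC (28) was also unnamed, and a last cluster (111) consisted of marked doublets.

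Defining markers were checked in each population. CD3E was seen in 76.1% to 85.9% of the CD4, Treg, CD8 and cytotoxic T-like cells, MS4A1 in 99.6% of the TCL1A-led B-like cells and LYZ in 99.2% of the monocyte-like cells. FOXP3 was seen in 35.9% of the Treg-like cells against 0.949% of the CD4 T-like cells. At the resolution used no cluster was named NK, and KLRF1 reached 3.59% of the cytotoxic memory T-like cells. A cluster led by the NK genes XCL2, KLRC1 and KLRF1 separated in other clusterings, with 66 cells at a resolution of 1.5, and the cytotoxic memory T-like cells can therefore hold NK cells. Of the cells led by ZNF683, 26.4% were marked as doublets, so that their values are less secure. Plasma-like cells were almost all from naïve blood, 378 there against 3 in each of sham and SCI blood. Monocyte-like cells numbered 141, 88, 18 and 9 in naïve, sham and SCI blood and the cord.

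ENTPD1, the enzyme of the first step, was the member shared by B-like, monocyte-like and Treg-like cells. In the monocyte-like cells it stood at 139.8 CPM in naïve and 135 CPM in sham blood. The IGHA1-led plasma-like cells of naïve blood had 138 CPM and the IGLC3-led ones 98.1 CPM. TCL1A-led B-like cells had 143, 96.8 and 86.4 CPM in naïve, sham and SCI blood, and MPP6-led B-like cells 171, 91.1 and 100 CPM. Treg-like cells had 88.9, 93.3 and 59.3 CPM. The TCN1-led basophil or mast-like cells had only 18.6, 12.8 and 6.86 CPM from 10 UMIs in all, and the CTSG-led ones 1 UMI in blood. The ranges of monocyte-like, B-like and Treg-like cells over the blood libraries overlapped in part, and their order is not fixed by these data.

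Levels of ENTPD1 were mostly lower in the remaining T cells. The exception was the cycling cells, of which 93.0% had a CD3E UMI. They had 60.7, 94.5 and 34.3 CPM in naïve, sham and SCI blood, in sham blood near the Treg-like cells. The ZNF683-led cells had 33.2, 63.8 and 33.5 CPM, and the cytotoxic memory T-like cells 56.2, 30.7 and 16.0 CPM. CD4 T-like cells had 29.7, 47.5 and 21.8 CPM in the naïve, sham and SCI libraries. Summed over blood, Treg-like cells were 2.44-fold above CD4 T-like cells, a log2 ratio of 1.28 (interval 1.13 to 1.44). The ratio was 1.58, 0.97 and 1.45 in naïve, sham and SCI blood, in the same direction in 3 of 3 libraries. CD8B-led CD8 T-like cells, taken as the cells that should lack ENTPD1, had 2.01, 2.83 and 1.21 CPM. Their share of cells with a UMI was 0.351% to 0.985%, which was read as the level of free RNA, at median depths of 3405 to 5045 UMIs.

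In the Treg-like cells 17.9%, 24.5% and 15.9% carried an ENTPD1 UMI in naïve, sham and SCI blood, at median depths of 2982, 3996 and 3844 UMIs. After each cell was thinned to 1000 UMIs, the shares were 6.45%, 6.44% and 4.19%. For the CD4 T-like cells the same shares were 7.66%, 15.8% and 6.53%, and 2.65%, 3.43% and 1.09% after thinning. All of these lay above the shares in the CD8B-led cells, which were 0.14% to 0.164% after thinning.

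**Figure D1:**
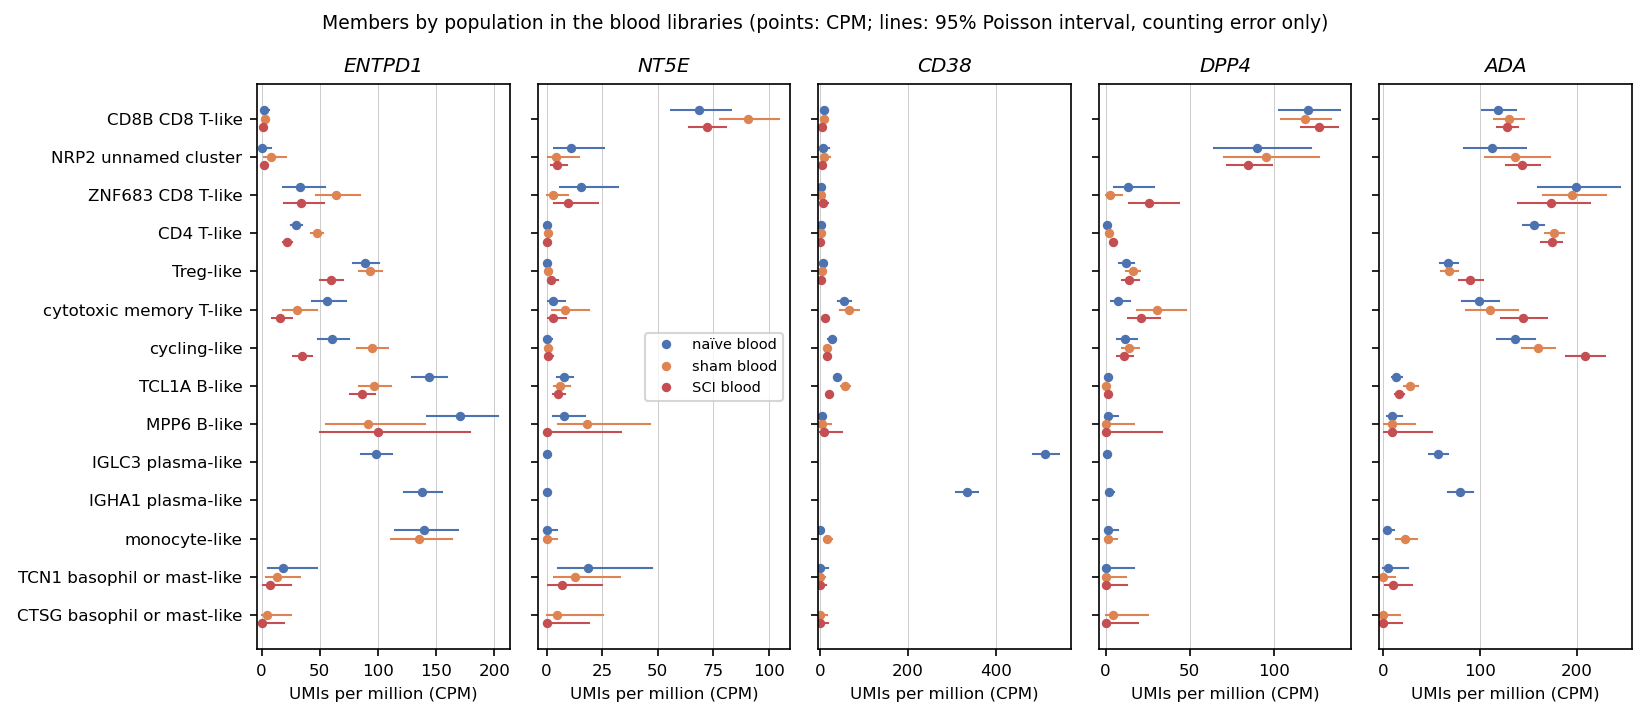
Level of 5 members (CPM, horizontal axes) in the named populations and the cluster led by NRP2 (rows) for naïve, sham and SCI blood (colours), in populations with at least 30 cells; lines are 95% Poisson intervals for counting error only. NT5E reaches 68.4 to 90.5 CPM in the CD8B-led CD8 T-like cells and DPP4 118 to 127 CPM there, CD38 peaks at 511 CPM in the plasma-like cells, and ENTPD1 is at most 2.83 CPM in the CD8B-led cells.

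NT5E, which completes the conversion to adenosine, was concentrated in cells with nearly no ENTPD1. The CD8B-led CD8 T-like cells had 68.4 CPM in naïve (interval 55.8 to 83.0), 90.5 in sham (78.2 to 104) and 72.1 in SCI blood (64.1 to 80.7). They held 592 of the NT5E UMIs of blood, or 82.1%. TCL1A-led B-like cells had 7.74, 6.14 and 5.22 CPM. CD4 T-like cells had 0.193, 0.588 and 0.36 CPM from 1, 4 and 2 UMIs. Treg-like cells had 0, 3 and 5 UMIs, the last being 2.17 CPM.

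Over both CD8 T-like populations NT5E was at 64.2 CPM against 0.399 CPM in CD4 T-like cells, a log2 ratio of 7.23 (interval 6.28 to 8.65). It was 7.61, 6.69 and 7.18 in naïve, sham and SCI blood. The ZNF683-led cells, which share the CD8 genes, had only 15.5, 2.72 and 9.84 CPM, so that most of the level came from the CD8B-led cells. The cytotoxic memory T-like cells, of which 51.4% had a CD8A UMI, had 2.81, 8.08 and 3.0 CPM. Monocyte-like cells, taken as lacking NT5E, had 0 UMIs in every library. Taken as 3 UMIs over the total, this allows up to about 3.81 CPM in naïve and 3.69 CPM in sham blood.

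NT5E was seen in 13.8% (11.2 to 16.7) of the CD8B-led cells of naïve blood, 25.8% (22.3 to 29.4) of sham and 17.9% (15.9 to 20.0) of SCI blood. After thinning to 1000 UMIs the shares were 4.91%, 4.6% and 4.78%, and the order of the unthinned shares was that of the median depths, 3405, 5045 and 4422.5 UMIs. A marker of B cells was also present in these cells, with CD79A at 72.4, 83.0 and 99.9 CPM, while MS4A1 was at 5.37, 7.07 and 8.71 CPM. Its part in the level of NT5E was not tested.

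CD38, the NAD consumer, was highest in the plasma-like cells, whose clusters were named from a list of markers and were led by immunoglobulin genes. In naïve blood the IGLC3-led cells had 511 CPM (482 to 542) and the IGHA1-led cells 333 CPM (308 to 359), with a UMI in 93.3% and 88.6% of them. CD38 was among the leading genes of the IGLC3-led cells, so that its level there is a description. Over blood, plasma-like cells were above B-like cells by a log2 ratio of 3.67 (3.49 to 3.86), which rested on naïve blood, where it was 3.78. The 3 plasma-like cells of SCI blood had 11 UMIs and the 3 of sham blood none.

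Outside the plasma-like cells, CD38 of naïve and sham blood was highest in the cytotoxic memory T-like and the TCL1A-led B-like cells. The cytotoxic memory T-like cells had 54.3, 64.7 and 11.01 CPM in naïve, sham and SCI blood, and the part of NK cells in this level was not tested. The TCL1A-led B-like cells had 38.7, 56.6 and 21.5 CPM. CD4 T-like cells had 2.89, 1.32 and 0.719 CPM. IGHM, the immunoglobulin heavy chain message, made up 29635 CPM of all naïve cells against 732 in sham and 1098 in SCI blood. In naïve blood the T-like and cycling cells had 6.13 to 181 CD38 UMIs per 1000 IGHM UMIs, with 9.58 in the CD4 T-like and 181 in the cytotoxic memory T-like cells, against 2.63 and 3.64 in the IGLC3-led and IGHA1-led plasma-like cells. The part of free plasma cell RNA in these levels was not tested.

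**Figure D2:**
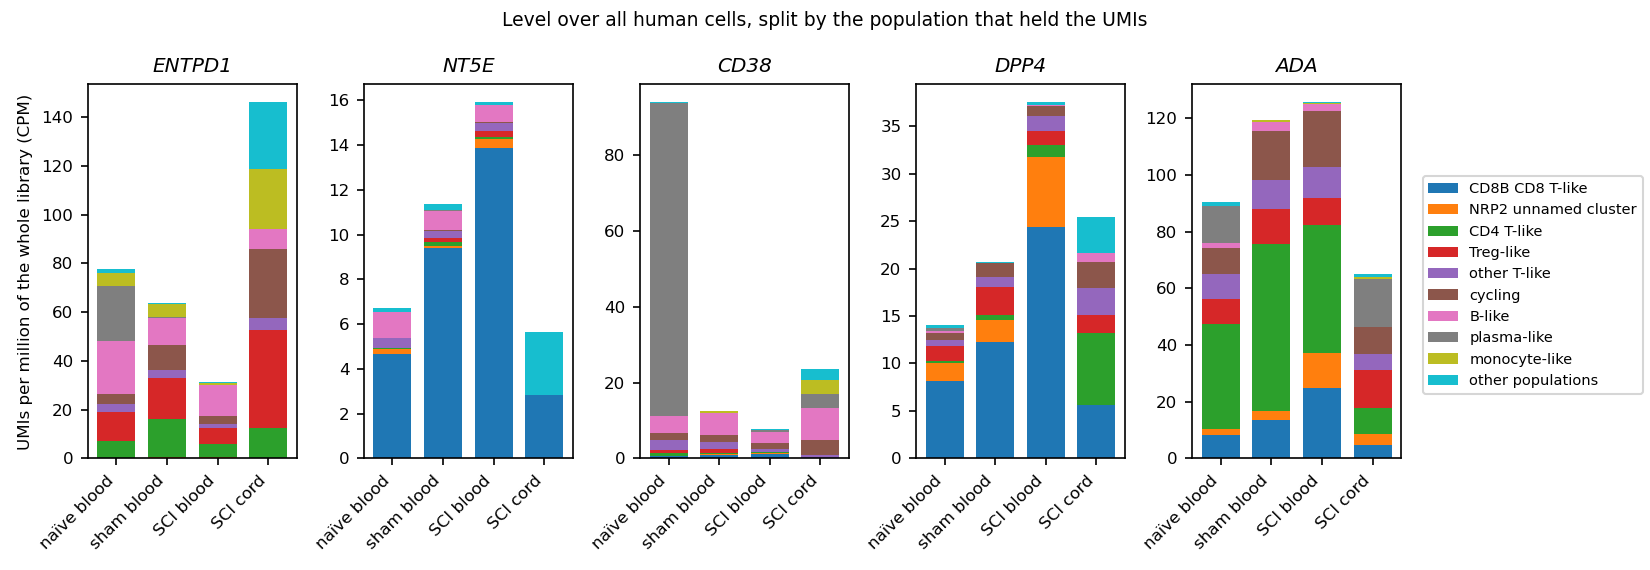
CPM of 5 members over all human cells of each library (vertical axes, from 0), split by the population that held the UMIs (colours). NT5E of blood lies mostly in CD8B-led CD8 T-like cells, 87.8% of the CD38 of naïve blood lies in plasma-like cells, and ENTPD1 is spread over B-like, plasma-like, Treg-like and CD4 T-like cells.

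DPP4 was shared by the CD8B-led cells and the unnamed cluster led by NRP2. The CD8B-led cells had 120.0 CPM (103 to 139) in naïve, 118 (104 to 134) in sham and 127 (116 to 138) in SCI blood. The cluster led by NRP2 had 90.1, 95.4 and 84.8 CPM. They held 62.1% and 16.1% of the DPP4 UMIs of blood. The counting intervals of the 3 libraries overlapped in both populations.

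Other T cells had less DPP4. Treg-like cells had 11.9, 16.0 and 13.9 CPM and cytotoxic memory T-like cells 7.49, 30.7 and 21.0 CPM. CD4 T-like cells had 0.963, 1.76 and 4.67 CPM from 5, 12 and 26 UMIs. B-like cells, taken as lacking DPP4, had 4, 0 and 4 UMIs over both populations. The level in CD4 T-like over B-like cells was accordingly small, a log2 ratio of 1.35 (0.31 to 2.72) over blood. In naïve blood it was -0.41, in the other direction, from 5 and 4 UMIs, while in SCI blood it was 1.75 (0.37 to 3.87). DPP4 of CD4 T-like cells was thus not detectable above free RNA in naïve blood.

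ADA was found in every T-like population. The ZNF683-led cells had 199, 196 and 173 CPM, CD4 T-like cells 155, 177 and 174 CPM, and cycling cells 136, 160.1 and 209 CPM. The NRP2-led cluster had 112, 136 and 144 CPM and the CD8B-led cells 119, 129.6 and 128 CPM. Treg-like cells were lower than CD4 T-like cells in each library, at 67.3, 68.3 and 89.6 CPM. TCL1A-led B-like cells had 13.4, 27.8 and 16.6 CPM and monocyte-like cells 3.81 and 22.2 CPM in naïve and sham blood. The plasma-like cells of naïve blood had 56.2 CPM (IGLC3-led) and 79.05 CPM (IGHA1-led), and held 283 of its ADA UMIs, or 14.3%. Cycling over CD4 T-like cells gave a log2 ratio of 0.01 (-0.09 to 0.12) over blood, with -0.19 and -0.14 in naïve and sham and 0.26 (0.09 to 0.43) in SCI blood.

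ADORA2A, the receptor, was barely counted in any library. The blood libraries held 2, 4 and 2 UMIs and the cord 0, which are 0.0914, 0.196 and 0.093 CPM. The 8 UMIs lay in CD4 T-like, TCL1A-led B-like, monocyte-like, CD8 T-like and cytotoxic memory T-like cells, with no more than 2 in any population of a library. The 0 UMIs among 118 cord cells allow a share of cells with a UMI of up to about 2.54%, taken as 3 over the number of cells. The read-through gene SPECC1L-ADORA2A had 2 UMIs, both in SCI blood. The antisense gene ADORA2A-AS1 had 82, 41 and 51 UMIs in blood. Whether the counting used strand is not given in the sources used here. No ratio of ADORA2A was computed.

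The other adenosine receptors were also sparse. ADORA2B, the low-affinity partner of ADORA2A, had 22, 20 and 13 UMIs in blood and its highest level, 27.3 CPM, in CTSG-led basophil or mast-like cells of sham blood. ADORA3 had 7, 6 and 4 UMIs in blood and 10 in the cord, and ADORA1 1 in all. At this depth the receptors could not be compared between populations.

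Sham and naïve blood were compared to ask what surgery without injury changes. Over all human cells NT5E was at 6.72 CPM in naïve and 11.3 CPM in sham blood, a log2 ratio of 0.75 (0.45 to 1.06). CD38 was at 94.0 and 12.6 CPM, a log2 ratio of -2.90 (-3.09 to -2.71). ENTPD1, at 77.7 and 63.9 CPM, DPP4, at 14.04 and 20.7 CPM, and ADA, at 90.3 and 119.5 CPM, stayed within 1.5-fold. Thus 2 of the 5 members with at least 20 counts were past 1.5-fold, and 12.6% of all genes were. Without the plasma-like populations none of the 5 was, with CD38 at -0.16, and the median of all genes in this comparison was 0.06.

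SCI and naïve blood differed in 4 of the same 5 members, where 17.1% of all genes were past 1.5-fold. NT5E was at 15.9 CPM in SCI blood, a log2 ratio of 1.24 (0.96 to 1.53), and DPP4 at 37.5 CPM, a log2 ratio of 1.42 (1.23 to 1.61). ENTPD1 was at 31.3 CPM, a log2 ratio of -1.31 (-1.44 to -1.18), and CD38 at 7.77 CPM, a log2 ratio of -3.59 (-3.83 to -3.37). ADA was at 126 CPM, a log2 ratio of 0.48 (0.39 to 0.56), within 1.5-fold.

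SCI and sham blood, which share the surgery, differed in 3 of the 5 members, where 12.5% of all genes were past 1.5-fold. ENTPD1 was lower in SCI blood by a log2 ratio of -1.03 (-1.17 to -0.89) and CD38 by -0.70 (-0.99 to -0.41). DPP4 was higher, by 0.86 (0.69 to 1.03). NT5E was at 0.49 (0.24 to 0.73) and ADA at 0.07 (-0.01 to 0.15). Each blood library enters 2 of the 3 comparisons, which are therefore not independent.

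Values over all cells depend on the level within a population and on its share of the cells. CD8B-led CD8 T-like cells made up 10.0%, 13.1% and 24.0% of the cells of naïve, sham and SCI blood, and the cluster led by NRP2 2.8%, 2.71% and 9.87%. Weights equal in both libraries could be given to the 12 populations with at least 10 cells in each, the smallest with 18. The plasma-like populations were not among them. The weight of a population was its mean share of the cells over the 2 libraries compared, so that large populations counted more than small ones. With the 12 populations held at these equal weights, the log2 ratio of NT5E between SCI and naïve blood was -0.02 in place of 1.24. That of DPP4 was 0.14 in place of 1.42. Against sham blood the same values were -0.31 for NT5E and 0.07 for DPP4. Within the CD8B-led cells the log2 ratio between SCI and naïve blood was 0.07 (-0.25 to 0.41) for NT5E and 0.08 (-0.17 to 0.33) for DPP4. ENTPD1 kept part of its difference at equal weights, with -0.69 against naïve and -0.68 against sham blood, and CD38 had -1.08 and -1.29. For CD38 between sham and naïve blood the 12 populations gave 0.23, in the other direction, but they lack the plasma-like cells, which held 1807 CD38 UMIs of naïve blood. The plasma-like cells also held 494 ENTPD1 UMIs of naïve blood, or 29.1%, against 2 in SCI blood. Equal weights therefore do not separate level from share for CD38 or ENTPD1 in the comparisons with naïve blood.

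**Figure D3:**
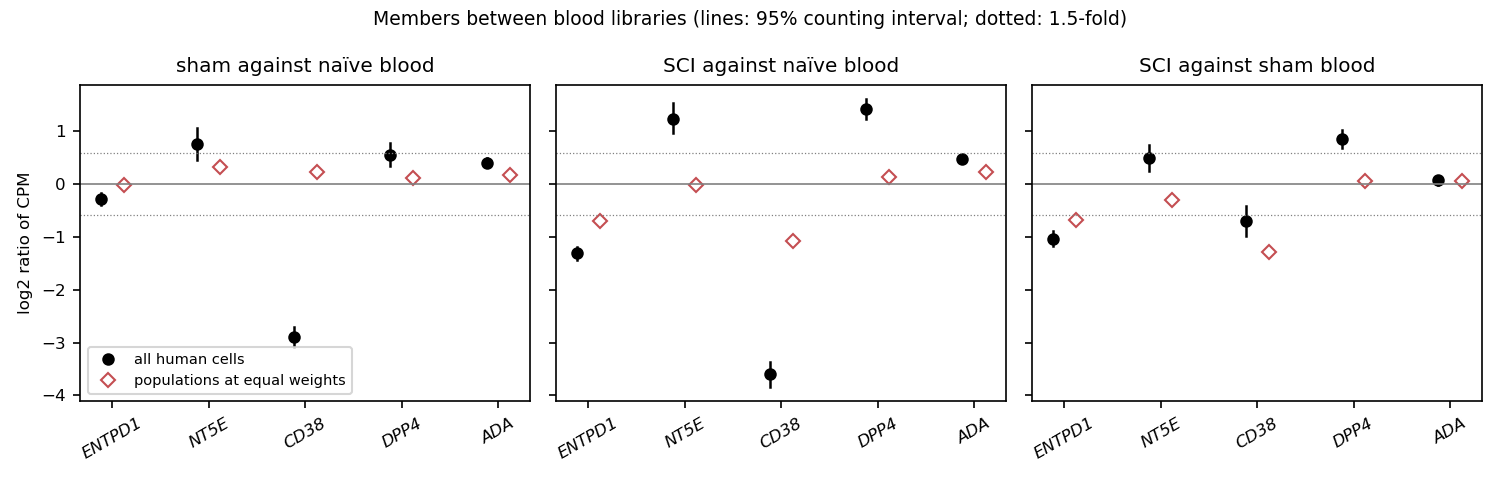
Log2 ratio of CPM (vertical axis) of 5 members in the 3 comparisons between blood libraries. Black points are all human cells, with 95% counting intervals. Open diamonds are 12 populations, plasma-like cells not among them, at weights equal in both libraries (the mean share of cells of each population). Dotted lines mark 1.5-fold. Between SCI and naïve blood NT5E moves from 1.24 to -0.02 and DPP4 from 1.42 to 0.14, while ENTPD1 moves from -1.31 to -0.69.

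ENTPD1 was then compared within populations. In CD4 T-like cells it was lower in SCI blood than in sham blood by a log2 ratio of -1.12 (-1.44 to -0.82), past 1.5-fold, where 4.41% of genes were lower by that much. Against naïve blood it was -0.45 (-0.80 to -0.09), within 1.5-fold, where 5.71% were lower. In Treg-like cells it was -0.65 (-0.95 to -0.36) against sham blood, where 5.14% were lower, and -0.58 (-0.89 to -0.28) against naïve blood, just within 1.5-fold, where 5.90% were lower. In TCL1A-led B-like cells the ratio was -0.73 (-0.97 to -0.50) against naïve blood, where 5.29% were lower, and -0.16 (-0.43 to 0.11) against sham blood, where 4.60% were lower. After thinning, the value against naïve blood in these B-like cells was -0.31, within 1.5-fold.

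The remaining T-like populations had fewer UMIs of ENTPD1. In cytotoxic memory T-like cells the ratio was -1.78 (-2.71 to -0.996) against naïve blood, from 16 and 60 UMIs, where 10.3% of genes were lower. Against sham blood it was -0.93 (-1.995 to 0.10), from 16 and 19 UMIs, where 8.04% were lower. In cycling cells it was -0.82 (-1.30 to -0.35) against naïve and -1.46 (-1.87 to -1.07) against sham blood. Of the 7 populations with at least 20 ENTPD1 UMIs over both libraries, 6 had a ratio below 0 against naïve blood, 4 of them past 1.5-fold, the exception being the ZNF683-led cells at 0.01. Against sham blood 6 of 7 were below 0, 5 of them past 1.5-fold, the exception being the MPP6-led B-like cells at 0.16.

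FOXP3, the defining factor of regulatory T cells, was also lowest in SCI blood among Treg-like, cycling and CD4 T-like cells. FOXP3 in the Treg-like cells was at 180.2, 211 and 138 CPM in naïve, sham and SCI blood, and IL2RA, the high-affinity IL-2 receptor chain, at 198, 187 and 145 CPM. In the cycling cells FOXP3 was at 57.3, 61.9 and 15.7 CPM, and in the CD4 T-like cells at 4.63, 4.41 and 1.44 CPM. Their part in the differences of ENTPD1 was not tested. ENTPD1-AS1, the antisense gene at the ENTPD1 locus, was at 10.6, 11.1 and 11.5 CPM over all cells of naïve, sham and SCI blood and differed by a log2 ratio of 0.05 (-0.22 to 0.32) between SCI and sham blood.

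**Figure D4:**
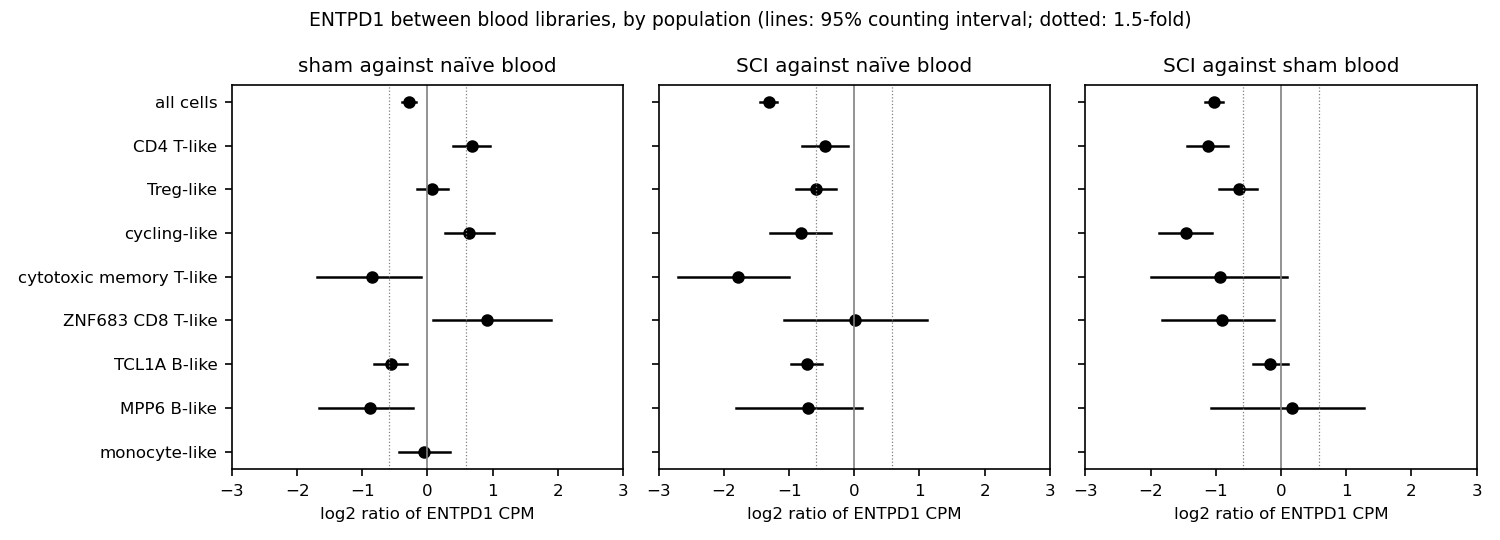
Log2 ratio of ENTPD1 CPM (horizontal axis) over all cells and within populations (rows) in the 3 comparisons between blood libraries; lines are 95% counting intervals, dotted lines mark 1.5-fold, and rows need 30 cells in each library and at least 20 UMIs over both. SCI against sham blood is below 0 in all rows but the MPP6-led B-like cells, at 0.16, while sham against naïve blood is above 0 in CD4 T-like cells (0.68) and below it in cytotoxic memory T-like cells (-0.85).

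CD38 of TCL1A-led B-like and cytotoxic memory T-like cells was lowest in SCI blood too. The MPP6-led B-like cells had only 4, 1 and 1 CD38 UMIs in naïve, sham and SCI blood. In the TCL1A-led B-like cells the log2 ratio was -0.84 (-1.32 to -0.38) against naïve blood, where 5.29% of genes were lower by 1.5-fold. Against sham blood it was -1.39 (-1.85 to -0.95), where 4.60% were lower. In the cytotoxic memory T-like cells it was -2.25 (-3.38 to -1.36) and -2.51 (-3.67 to -1.56), from 11 UMIs in SCI blood, where 10.3% and 8.04% were lower. TNFRSF17, a plasma cell receptor, was at 1.12 CPM over all cells of sham and 2.47 CPM of SCI blood, against 91.1 CPM in naïve blood.

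DPP4 and ADA had few differences within populations. DPP4 of CD4 T-like cells was higher in SCI than in naïve blood by a log2 ratio of 2.17 (0.87 to 4.02) and than in sham blood by 1.37 (0.37 to 2.53), at levels of at most 4.67 CPM. DPP4 of the cytotoxic memory T-like cells was lowest in naïve blood, with 8 UMIs against 19 and 21. ADA of cycling cells was higher in SCI than in naïve blood by 0.61 (0.37 to 0.86). ADA of the TCL1A-led B-like cells was higher in sham than in naïve blood by 1.04 (0.41 to 1.71), and lower in SCI than in sham blood by -0.74 (-1.31 to -0.18). In the CD4 T-like and the CD8B-led cells, ADA stayed within 0.19 on the log2 scale in all 3 comparisons between blood libraries.

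Cord and blood of SCI mice were compared for the human cells found in the lesioned tissue. The cord cells, unlike those of blood, were not screened for doublets. Over all cells ENTPD1 was at 146 CPM in the cord and 31.3 CPM in blood, a log2 ratio of 2.23 (1.96 to 2.48). CD38 was at 23.6 and 7.77 CPM, a log2 ratio of 1.63 (0.93 to 2.21). NT5E was at 5.66 and 15.9 CPM, a log2 ratio of -1.38 (-2.95 to -0.36) from 6 cord UMIs, 3 of them in 1 cell without which it was -2.26. ADA was at 65.0 and 126 CPM, a log2 ratio of -0.94 (-1.32 to -0.60). One cell held 17 of the 69 ADA UMIs of the cord, and 2 plasma-like cells held 18. DPP4, at 25.5 and 37.5 CPM, was within 1.5-fold, but at -0.74 (-1.44 to -0.17) without the cell that held 4 of its 27 UMIs. Thus 4 of 5 members were past 1.5-fold, beside 40.0% of all genes.

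ENTPD1 was spread over the cord populations. The 15 Treg-like cells of the cord had 43 UMIs, or 396 CPM (287 to 534), against 59.3 CPM in blood. This log2 ratio was 2.75 (2.21 to 3.24), and 27.5% of genes in these cells were higher by 1.5-fold. One cord cell held 19 of the 43 UMIs, and without it the ratio was 2.14 (1.43 to 2.75) from 14 cells. FOXP3 in these cord cells was at 359.6 CPM, above its 138 CPM in blood. After thinning, the ratio of ENTPD1 in these cells was 1.22. The 27 CD4 T-like cells had 13 UMIs, or 81.7 CPM, a log2 ratio of 1.96 (0.96 to 2.74), where 25.6% of genes were higher. One cell held 7 of these, and without it the ratio was 1.05 (-0.54 to 2.10).

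The cycling cells of the cord, 5 in number, had 30 ENTPD1 UMIs (328 CPM), the 9 monocyte-like cells 26 (149 CPM) and the 13 cells led by CLC 28 (221 CPM). In blood the cycling cells had 34.3 CPM, the 18 monocyte-like cells 74.2 CPM and the 6 CLC-led cells 252 CPM. The intervals of the monocyte-like and CLC-led cells overlapped between cord and blood, and those of the cycling cells did not. In the T-like populations alone the log2 ratio of ENTPD1 was 2.94 and that of CD38 0.12, and TCL1A-led B-like cells held 9 of the 25 CD38 UMIs of the cord. After thinning the ratio of ENTPD1 over all cells was 1.63.

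In the CD4 T-like cells of the cord DPP4 was higher than in blood, as ENTPD1 was, and ADA was lower. DPP4 was at 50.3 CPM (21.7 to 99.1) from 8 UMIs in 5 cells, against 4.67 CPM in blood, a log2 ratio of 3.49 (2.07 to 4.61). Without the cell that held 3 of these UMIs it was 2.90 (1.05 to 4.19). ADA was at 62.9 CPM (30.2 to 116) against 174 CPM, a log2 ratio of -1.40 (-2.53 to -0.58). In the Treg-like cells ADA was at 129 CPM in the cord and 89.6 CPM in blood, with an interval of the log2 ratio from -0.37 to 1.31. One cord cell held 6 of the 14 UMIs, and without it ADA was at 81.2 CPM, a log2 ratio of -0.06 (-1.37 to 0.86). NT5E had 0 UMIs in both populations of the cord, and its 9 CD8B-led cells had 3 UMIs (61.1 CPM), near the 72.1 CPM of blood.

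**Figure D5:**
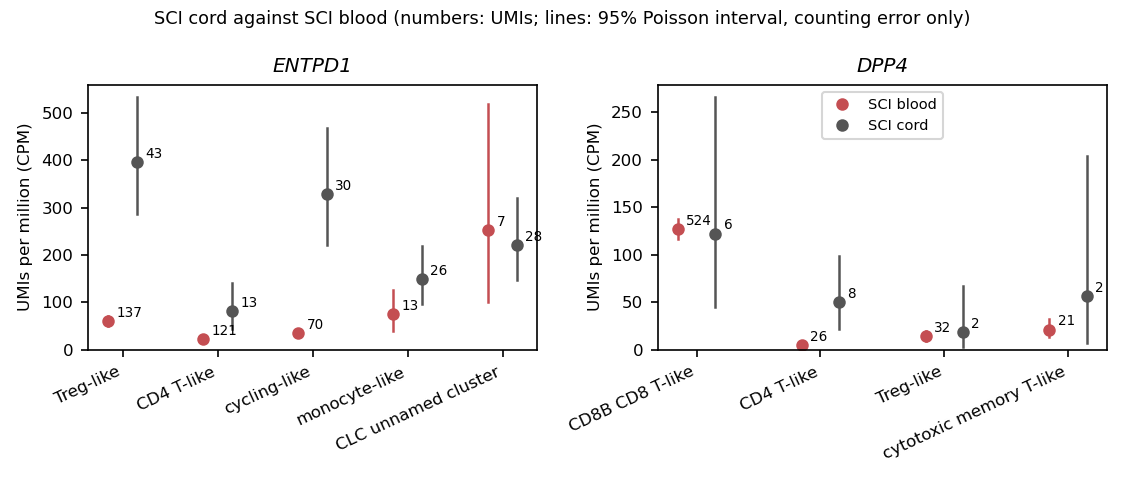
ENTPD1 and DPP4 (CPM, vertical axes from 0) in SCI blood (red) and SCI cord (grey) by population, with 95% Poisson intervals and the number of UMIs beside each point. ENTPD1 of cord Treg-like cells, 396 CPM from 43 UMIs, lies above the 59.3 CPM of blood, and DPP4 of cord CD4 T-like cells, 50.3 CPM from 8 UMIs, above the 4.67 CPM of blood.

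Because ENTPD1 and NT5E act in sequence, their detection in the same cells was counted. Both were seen in 8 cells each of naïve, sham and SCI blood, where the product of their shares gave 22.4, 35.7 and 25.8. ENTPD1 was seen in 6.35% of the NT5E-positive cells of naïve blood and in 18.0% of the rest, with 4.15% and 19.1% in sham and 2.69% and 9.02% in SCI blood. Within the TCL1A-led B-like cells both were seen in 3, 4 and 4 cells against 4.50, 3.32 and 3.38 from the shares, and within the CD8B-led cells in 1 cell each against 0.414, 1.55 and 0.895. Joint detection was thus below the product of shares over all cells, and near it within these populations. NT5E and DPP4 were seen together in 24, 61 and 86 cells against 5.35, 13.6 and 32.1 from the shares, but within the CD8B-led cells in 21, 58 and 85 against 20.8, 50.01 and 73.6. ADA and its anchor DPP4 were seen together within the CD8B-led cells in 37, 63 and 136 cells against 35.7, 65.9 and 124. In TCL1A-led B-like cells ENTPD1 and CD38 were seen together in 8, 19 and 5 cells against 20.1, 24.0 and 12.2. These counts depend on depth and describe detection, not protein.

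The genes with the most similar profile over 36 sums of population and blood library were listed among 10371 genes, as a description only, since sums of 1 library share its depth and its free RNA. For NT5E these were EGLN3 (r = 0.77), SERPINF1 (r = 0.76) and STAG3 (r = 0.75), of which EGLN3 and SERPINF1 are among the leading genes of the CD8B-led cells. For ENTPD1 they were the MHC class II genes HLA-DQB1 (r = 0.83) and HLA-DRA (r = 0.82) and PCK2 (r = 0.82). For CD38 they were DERL3 (r = 0.86), a plasma cell gene, CAV1 (r = 0.85) and LINC01480 (r = 0.85). For DPP4 they were RNF157 (r = 0.91), TXK (r = 0.91) and DHRS3 (r = 0.90), and for ADA GPRIN3 (r = 0.95), GYPC (r = 0.93) and HMG20B (r = 0.92).

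Of the 69 other genes of the adenosine and nucleotide pathway that were followed, 54 had at least 20 counts in the comparisons between blood libraries. In sham against naïve blood 6 were higher by 1.5-fold and 1 was lower, with a median log2 ratio of 0.11. In SCI against naïve blood 4 were higher and 10 lower, with a median of 0.02, and in SCI against sham blood 2 were higher and 10 lower, with a median of -0.05. These were 12.96%, 25.9% and 22.2% of the 54, beside 12.6%, 17.1% and 12.5% of all genes. The medians of all genes were 0.06, 0.06 and 0.01.

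ENPP3, a basophil enzyme that degrades extracellular ATP, peaked at 213 CPM in CTSG-led basophil or mast-like cells, and was at 1.83, 5.58 and 3.21 CPM over all cells of naïve, sham and SCI blood. BST1, the homologue of CD38, peaked at 187 CPM in monocyte-like cells and was at 6.77, 8.36 and 1.63 CPM, a log2 ratio of -2.04 between SCI and naïve blood. ADA2, the secreted deaminase, peaked at 154 CPM in monocyte-like cells and stayed within 1.5-fold. Of the transporters that take adenosine into cells, SLC29A1 peaked at 157 CPM in TCN1-led basophil or mast-like cells. It was at 6.0 CPM in SCI blood and 63.2 CPM in the cord, a log2 ratio of 3.40 (2.95 to 3.83). The TCN1-led cells made up 1.52% of the cells of SCI blood and 3.39% of the cord, and the CTSG-led ones 0.708% and 9.32%. The part of these shares in the ratio was not tested.

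Among nucleotide receptors, P2RY13, an ADP receptor, was at 11.2, 9.05 and 1.40 CPM in naïve, sham and SCI blood and peaked at 310.2 CPM in monocyte-like cells. P2RX7, the ATP receptor of inflammasome activation, was at 11.8, 13.4 and 6.56 CPM. These 2 genes, BST1 and P2RY6 peaked in monocyte-like cells, which made up 2.23%, 1.90% and 0.304% of the cells of naïve, sham and SCI blood. The part of these shares in the levels of the genes was not tested. P2RX5, an ATP-gated channel, peaked at 527 CPM in MPP6-led B-like cells. Inside the cell, APRT, which salvages adenine, had 545.9, 569.6 and 549.6 CPM, and none of 12 intracellular enzymes with enough counts was past 1.5-fold in SCI against naïve or sham blood.

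Downstream of the receptors, GNAS, the stimulatory G protein subunit, was at 1125, 1085 and 1143 CPM. PDE3B, which breaks down cAMP, was higher in SCI than in naïve blood by a log2 ratio of 0.74 (0.66 to 0.82). It peaked at 290.3 CPM in the CD8B-led cells, whose share differed as given above, and the part of this share was not tested. In the cord CREM, a cAMP-responsive transcription factor, was at 108 CPM against 32.2 CPM in SCI blood, a log2 ratio of 1.75 (1.45 to 2.04). PRKAR1A, the regulatory subunit of protein kinase A, was at 205 and 103 CPM, a log2 ratio of 0.99 (0.78 to 1.19). Among the blood populations CREM and PRKAR1A peaked in CTSG-led basophil or mast-like cells, at 81.8 and 227 CPM. The part of the larger share of these cells in the cord, given above, was not tested. In all, 20 of 52 pathway genes with enough counts were higher in the cord by 1.5-fold and 9 were lower, beside the 40.0% of all genes given above.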

How the data were processed

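UMIs of 1 library per group were counted by the authors in CellRanger 3.1.0 against human (GRCh38, 33538 genes) and mouse (mm10, 31053 genes) references together, and the deposited values are raw counts per gene and barcode.

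Human barcodes over 3 MADs below the median in log UMIs or genes, or above it in mitochondrial or ribosomal percent, were removed, as were Scrublet-marked doublets with over 3000 genes. Doublets were marked in the blood libraries only, since the cord library had too few cells. Leiden clusters (resolution 0.8, 2000 variable genes without the pathway genes, 30 components, 15 neighbours) were named from 16 marker lists. Clusters with over 50% marked doublets, and a naïve T cluster with a granzyme among its leading genes, were left unnamed by a rule set after the clusters were seen. Names were rebuilt here and can differ from those of the study. Summed counts were scaled to CPM. Log2 ratios used 0.5 added counts, at least 20 counts over both libraries and conditional binomial intervals. Populations needed 30 cells (10 in the cord, and 10 for equal weights). Levels have Poisson and shares exact binomial intervals. Limits given for 0 UMIs are not these intervals but 3 counts over the total or over the number of cells. The log2 ratios, their intervals and the fold rule were run on simulated sums with counting error only. These hold no spread between cells or animals, and the other steps were not simulated. Python 3.11.15, scanpy 1.11.5, leidenalg 0.10.2 and, for TMM factors only, edgeR 4.0.16 were used.

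The members, the pathway list (75 genes of the reference) and the marker lists were chosen with earlier results of these data known. Other pathway genes were eligible to be named when they had at least 20 CPM in a population of a blood library and were past 1.5-fold in a comparison, or had the highest CPM of their role, and those described are a part of them chosen after their values were seen. ADA2, PRKAR1A, P2RY6 and the adenosine receptors besides ADORA2A were added for their roles. Per member, the 3 genes of highest r were named. The closing section gives the effect of the alternatives.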

Additional observations from a re-analysis of the deposited data

Results flagged for a closer look

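ENTPD1 differed in direction between populations in sham against naïve blood. The log2 ratio was 0.6759 in CD4 T-like cells, 0.6349 in cycling cells and 0.9105 in the ZNF683-led CD8 T-like cells, whereas it was -0.8458 in cytotoxic memory T-like cells and -0.8746 in MPP6-led B-like cells. Each of these values was past 1.5-fold with an interval on 1 side of 0, and the difference between the populations was not tested.

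The mouse genes of the same pathway were read in the barcodes with mostly mouse UMIs, which the comparisons above did not use. There were 1411 of these in naïve blood, 1990 after sham surgery, 1230 after SCI and 93 from the cord. Mouse Entpd1 was at 8.73 CPM in naïve blood, against 160.4 and 141.5 CPM after sham surgery and SCI and 51.63 CPM in cord tissue. Mouse Cd38 was at 0.349 CPM in naïve blood, against 5.583 and 6.675 CPM after sham surgery and SCI and 30.09 CPM in cord tissue. Mouse Nt5e had 0 UMIs in naïve blood and was at 2.538 CPM in sham and 3.004 CPM in SCI blood. Mouse Ada had 0 UMIs in naïve blood and was at 24.89 CPM in the cord. The types of mouse cell in each library were not determined, and levels here are not separated from their shares.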

How the results depend on the processing

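Of the counts of members past 1.5-fold under all alternatives, 44 stayed within 1.5 times the reported count and 8 did not, and of the ratios between populations 49 moved by less than their counting error, 10 by more and 2 changed sign. Among members over all cells 152 ratios moved by less than their counting error, 63 by more and 4 changed sign. Sign changes were counted there only for members past 1.5-fold, and those of the other members lie among the 152 and 63. An example was NT5E in SCI against sham blood, above 0 over all cells and -0.31 with equal weights. Within populations, where only ratios past 1.5-fold were followed, the counts were 111, 12 and 2. For sham against naïve blood the count of 2 members became 4 with counts per cell, 0 with equal weights, 0 without the plasma-like populations, 1 in T-like populations only and 1 at a fold of 2. For SCI against naïve blood 4 became 2 with equal weights, for SCI against sham blood 3 became 1 at a fold of 2, and for the cord 4 became 2 in T-like populations only. With equal weights, over 12 populations without the plasma-like ones, CD38 in sham against naïve blood was 0.23 and NT5E in SCI against naïve blood -0.0200. In the cord NT5E was 0.55 after thinning and ADA 0.37 with counts per cell. CD38 of cycling cells in sham against naïve blood was 0.0754 with counts per cell, which shift every gene of these cells by 0.82, and ENTPD1 of MPP6-led B-like cells in SCI against naïve blood 0.39 after thinning. Counts per cell shift all ratios over all cells by 0.35, 0.07, -0.28 and 1.31 in the 4 comparisons in the order of the text.

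The NT5E ratio of CD8 over CD4 T-like cells (7.23) was 8.90 after thinning and 5.62 with classes from lineage marker UMIs. The ENTPD1 ratio of Treg-like over CD4 T-like cells (1.28) was 1.11 at a resolution of 1.5 and 1.03 with counts per cell. The CD38 ratio of plasma-like over B-like cells (3.67) was 5.46 with counts per cell and 3.90 with ribosomal and mitochondrial genes in the total. The DPP4 ratio of CD4 T-like over B-like cells (1.35) was 3.45 with classes from lineage marker UMIs. The ADA ratio of cycling over CD4 T-like cells (0.01) was -0.00115 with all marked doublets removed, -0.0575 after thinning, 0.12 at a resolution of 1.5, 0.15 with lineage marker classes and 1.479 with counts per cell. Counts per cell keep differences in depth. Relative to the median of their library, the median depth was 2.51 in cycling and 1.04 in CD4 T-like cells. The cause of the other moves was not tested. The ADORA2A ratio was not run, with 2 and 2 UMIs. The settings without the plasma-like populations, with T-like populations only and without the ZNF683-led cells were chosen after seeing the data.

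No paired analysis was possible because each group is 1 library. Depth limits ADORA2A in all libraries and all members in the cord, where 1 cell can hold a large part of a gene's UMIs.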
